A study of Mus musculus with 6 samples.

Results

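The lysyl oxidase family has 5 listed members in the mouse: Lox, Loxl1, Loxl2, Loxl3 and Loxl4. Its probe sets, the groups of array probes that read 1 transcript, were chosen by gene symbol from those the platform annotation assigns to a single gene, and where a gene had several, the one with the highest mean over all 6 arrays represents it. The family was picked on the signals of Lox in the comparison below, so the members' own differences are given as a description, with no test. Of the 5 genes, 4 were measured, by 8 of the 45101 probe sets in the table, and they stand among 18193 genes. Loxl2 has no probe set of its own: its 2 probe sets are assigned to a second gene as well, and it was not analysed here.

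The study compared mouse embryonic fibroblasts of wild-type genotype with fibroblasts labelled as abl/arg knockout, a name that refers to the non-receptor tyrosine kinases c-Abl (Abl1) and Arg (Abl2). Both groups are labelled C57BL/6, embryos of 14 days of gestation with males and females pooled, and both grew in medium with 10% serum; no treatment is named. Each group has 3 arrays, a number that limits how precisely a difference is known. Whether those 3 are different embryos or cultures is not stated, so errors and p-values measure variation among the arrays alone, some or all of which may be technical. The labels do not say how the knockout was made or whether the cells were immortalized.

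Lysyl oxidases are secreted copper enzymes that turn lysine side chains of collagen and elastin into aldehydes, which then react with neighbouring chains and cross-link the fibres. Fibroblasts are a main source of these enzymes. LOX and LOXL1 are made as proenzymes with a propeptide that BMP1-type proteases remove, whereas LOXL2, LOXL3 and LOXL4 carry scavenger receptor cysteine-rich domains in front of the shared catalytic domain.

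Among the targeted genes, the brightest Abl1 probe set had signals of 181.6 to 189.9 in wild type and 161.3 to 177.7 in the knockout-labelled arrays, and that of Abl2 had 245.4 to 262.3 and 243.0 to 266.6. Neither passed the test across all genes (limma adjusted p = 0.0929 and 0.874; log2 differences -0.11 ± 0.05 and -0.01 ± 0.05, SE). The outcome turned with the scaling and the probe sets used. On hybridization spikes Abl1 (-0.37) and Abl2 (-0.27) passed as lower, as did Abl1 with arrays centred on their medians (-0.21). On poly-A spikes both passed as higher (0.38 and 0.50), as did Abl1 with its probe sets averaged (0.13, limma adjusted p = 0.0421). A probe set outside a deleted part checks nothing, and where these probes lie was not analysed here, so each direction below is that of the knockout-labelled arrays. Median signals per array were 13.44 to 14.74. Of 17 fibroblast marker genes, 13 had a mean signal above 100 in each group. Pdgfra, the PDGF receptor of mesenchymal cells, was near the floor in wild type (9.99 ± 0.999, SD, n = 3) and Col1a2, a type I collagen chain, in the knockout-labelled arrays (9.71 ± 2.16), while the surface marker Thy1 was near it in both (8.22 and 7.59). The summed signal of 11 macrophage and leukocyte markers was 193.5 to 211.4 in wild type and 567.3 to 608.1 in the knockout-labelled arrays, and 3 of the 11 rose: Cd14 (99.9 to 400.8), the lysozyme gene Lyz2 (9.11 to 72.4, 1.82 on the log2 scale, limma adjusted p = 1.85e-09) and Cd68 (19.3 to 41.0, 0.69). In the same fit 24.2% of all genes rose at an adjusted p under 0.05, so nothing is read from that count. Most of the summed rise came from Cd14. The pan-leukocyte gene Ptprc stayed at 2.59 and 2.64 and Adgre1, a macrophage marker, at 3.66 and 3.63. Summed signals of 7 smooth muscle markers were 214.7 to 231.3 and 1562 to 1641, nearly all of the latter from Acta2 (1516). Of these 7, 1 rose, Acta2, and 2 fell, Des (78.1 to 40.7) and Lmod1 (20.47 to 10.45), and 4 were not called. Over all genes 35.5% fell in the same fit, so nothing is read from these counts. Summed signals of 8 cartilage and bone markers were 102.4 to 108.2 and 178.8 to 203.1. Of these 8, 1 rose, Sox9 (31.6 to 128.1), and 1 fell, Matn3 (17.1 to 7.36). Epithelial (10 genes) and endothelial markers (9 genes) summed to at most 123.8 and 73.75 in any array. The part of these markers in the results below was not tested.

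Within the family, Lox, Loxl3 and Loxl1 were higher in the knockout-labelled arrays and Loxl4 was lower. On log2(signal + 16), which understates changes near the floor, the differences of their main probe sets were 8.46 for Lox, 1.53 for Loxl3, 1.13 for Loxl1 and -2.58 for Loxl4. All 3 arrays of one group lay beyond all 3 of the other for each of the 4 genes, 3 in the higher and 1 in the lower direction. Over all 18193 genes, 25.7% had all 3 knockout-labelled arrays above the wild type and 39.0% had them below, so nothing is read from that count. By main probe sets Lox had the highest difference of all genes, a rank that restates the choice of the family on its signals. With its probe sets averaged Lox was at 5.52, below Grem1 (7.55) and Aox3 (7.29), which have a single probe set each. By main probe sets, 2.43% of genes differed by more in size than Loxl4, 8.03% by more than Loxl3 and 13.1% by more than Loxl1.

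**Figure D1:**
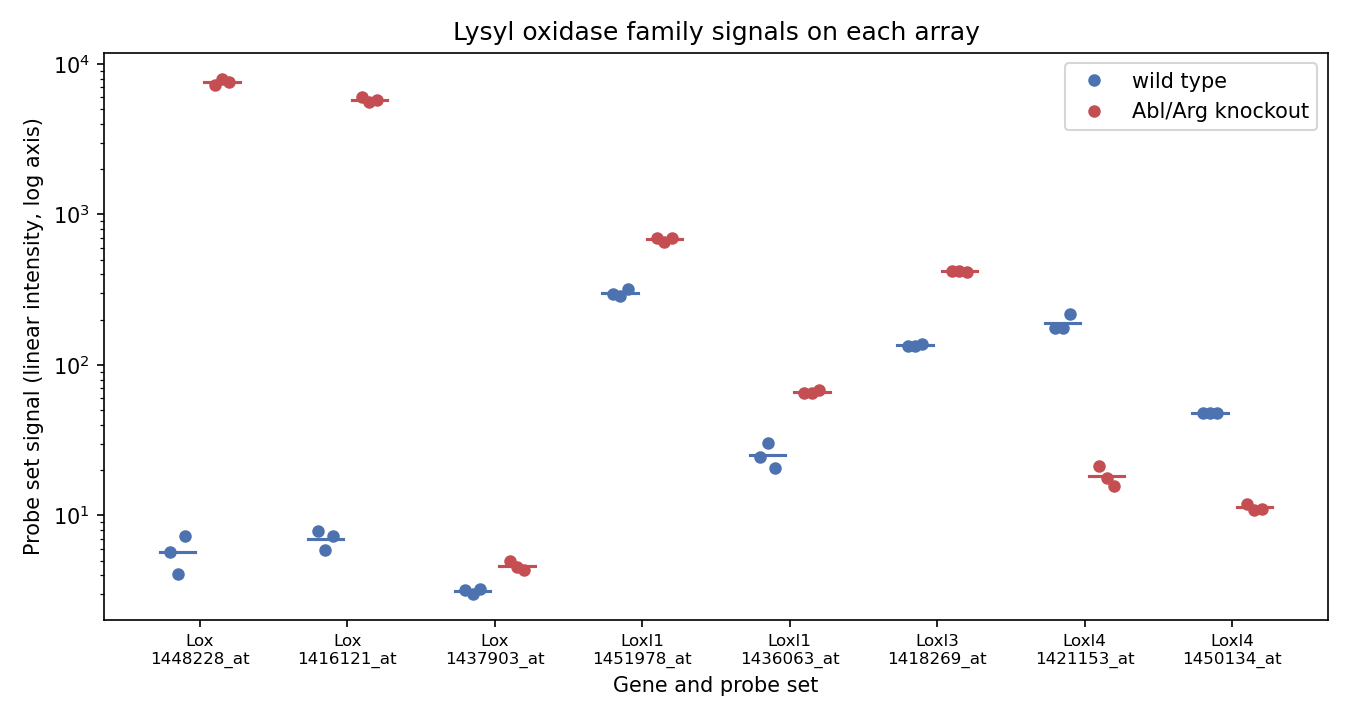
Signal (linear intensity on a log axis) of the 8 probe sets of Lox, Loxl1, Loxl3 and Loxl4 by array; a point is 1 of the 6 arrays and a dash the mean of a group (n = 3). The groups do not overlap for any of the 8 probe sets; both bright Lox probe sets go from at most 7.87 in wild type to at least 5597, and both Loxl4 probe sets are lower in the knockout-labelled arrays.

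Lox encodes the founding enzyme of the family, which acts on fibrillar collagens and elastin. Its main probe set read 5.73, 4.05 and 7.24 in the wild-type arrays and 7259, 7983 and 7608 in the knockout-labelled arrays. The groups lay far apart: in wild type the probe set was dimmer than most of the array, above 21.5 to 37.3% of all probe sets, and in the other group it was above 99.9%. The means were 5.67 ± 1.60 and 7617 ± 362.4 (SD, n = 3 each), with a log2 difference of 8.46 ± 0.06 (SE). Since the wild-type signal was near the floor, the size of the difference depends on the offset added before the logarithm: it was 10.18 with an offset of 1 and 6.78 with 64.

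Another Lox probe set gave 7.87, 5.86 and 7.30 in wild type and 6017, 5597 and 5796 in the knockout-labelled arrays. Its difference of 7.98 ± 0.05 on the log2 scale is close to that of the main probe set. The third Lox probe set was dim on every array, at 3.21, 3.0 and 3.26 in wild type and 4.98, 4.54 and 4.32 in the knockout-labelled arrays, with a log2 difference of 0.11 ± 0.02. It lay above at most 27% of the probe sets of any array, so the 2 bright and the dim probe set read the gene differently. With all 3 averaged, the difference of Lox was 5.52. The wild-type coefficient of variation was 28.1% for the main probe set, against 4.76% in the other group; near the floor a spread of a few signal units is large relative to the mean.

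Loxl1 encodes the member best known for elastic fibre assembly and upkeep, where it acts with fibulin-5. Its main probe set read 297.3, 288.1 and 321.3 in wild type and 699.6, 651.9 and 695.0 in the knockout-labelled arrays. It was well above the floor in both groups, above 87.2 to 88.3% and 94.0 to 94.6% of probe sets. The means of 302.2 ± 17.13 and 682.2 ± 26.3 (SD, n = 3 each) differ 2.26-fold, with the log2 difference at 1.13 ± 0.05 (SE). The dimmer probe set had 24.48, 30.18 and 20.76 in wild type and 64.89, 65.28 and 68.23 in the knockout-labelled arrays, so its means of 25.1 ± 4.75 and 66.1 ± 1.82 differ 2.63-fold. Both Loxl1 probe sets thus lay on the same side, with no overlap between groups.

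Loxl3 encodes a member needed for palate and skeletal development in the mouse, and it had a single probe set. Its signals were 134.6, 133.2 and 136.8 in wild type and 418.0, 423.7 and 417.9 in the knockout-labelled arrays. These were the tightest replicates among the main probe sets of the family, with coefficients of variation of 1.33% and 0.799%. The means of 134.9 ± 1.79 and 419.9 ± 3.35 (SD, n = 3 each) differ 3.11-fold, with the log2 difference at 1.53 ± 0.04 (SE). With 1 probe set, the difference has no second reading on the array.

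Loxl4 was the member with lower signals in the knockout-labelled arrays. Its main probe set read 175.2, 174.8 and 217.1 in wild type and 21.36, 17.83 and 15.78 in the knockout-labelled arrays. In the latter it was close to the array median, above 51.2 to 55.8% of probe sets, against 81.6 to 84% in wild type. The means were 189.0 ± 24.28 and 18.32 ± 2.82 (SD, n = 3 each), and the log2 difference was -2.58 ± 0.10 (SE), which was -3.30 with an offset of 1 and -1.62 with 64. The other probe set had 47.92, 47.96 and 48.07 in wild type and 11.92, 10.92 and 11.08 in the knockout-labelled arrays. Its log2 difference of -1.23 ± 0.07 has the same direction as that of the main probe set and is smaller; averaged, the 2 gave -1.90.

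Of the 5 genes, only 1 matched the RefSeq promoter table used, Loxl4, so the 250 bases before its start alone are shown. They lie at chr19:42612807-42613056 on the minus strand of GRCm38.p6 and are printed 5′ to 3′ along the gene, with matched motifs in capitals.
Loxl4 promoter: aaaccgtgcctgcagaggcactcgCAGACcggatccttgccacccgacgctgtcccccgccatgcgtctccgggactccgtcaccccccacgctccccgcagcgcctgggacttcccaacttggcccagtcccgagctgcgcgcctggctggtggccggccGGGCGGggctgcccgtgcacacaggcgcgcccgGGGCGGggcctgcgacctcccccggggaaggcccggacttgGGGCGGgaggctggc
The stretch is 76% G and C. Both strands were searched. The GC box GGGCGG, which Sp1-type factors bind, matched 3 times, starting 89, 56 and 15 bases before the gene's start. The SMAD-binding core CAGAC matched 1 time, 226 bases before it. All matches lay on the strand printed, and none overlapped. GGGCGG and CAGAC occur at least 1 time, on either strand, in 32.7% and 42.2% of the 32851 promoters of the same length in the table. TATAAA (12.4% of promoters) and ACGTG, the core of hypoxia-response elements (16.6%), are not in this window. A match is a description of the letters, not a binding site.

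The directions of the 4 genes did not depend on how the arrays were scaled. Under quantile normalization, centring of each array on its median, and scaling on poly-A or hybridization spike controls, the difference of Lox was 8.29 to 8.80, that of Loxl1 0.86 to 1.65, that of Loxl3 1.27 to 2.03 and that of Loxl4 -2.78 to -2.18. Poly-A spike scaling moved the median difference of all genes from -0.03 to 0.13 and hybridization spike scaling to -0.13. Relative to those medians, Lox was at 8.66 and 8.42, Loxl1 at 1.52 and 0.99, Loxl3 at 1.90 and 1.40 and Loxl4 at -2.31 and -2.65. The offset makes dim genes move little with a scaling; the 6635 genes with a mean log2 value over 7 had medians of 0.43 and -0.34. Relative to these, Loxl1 was at 1.22 and 1.21, Loxl3 at 1.60 and 1.61, Lox at 8.36 and 8.63 and Loxl4 at -2.61 and -2.43. Leaving out any single array, Lox stayed between 8.41 and 8.51, Loxl1 between 1.10 and 1.18, Loxl3 between 1.52 and 1.54 and Loxl4 between -2.64 and -2.48.

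**Figure D2:**
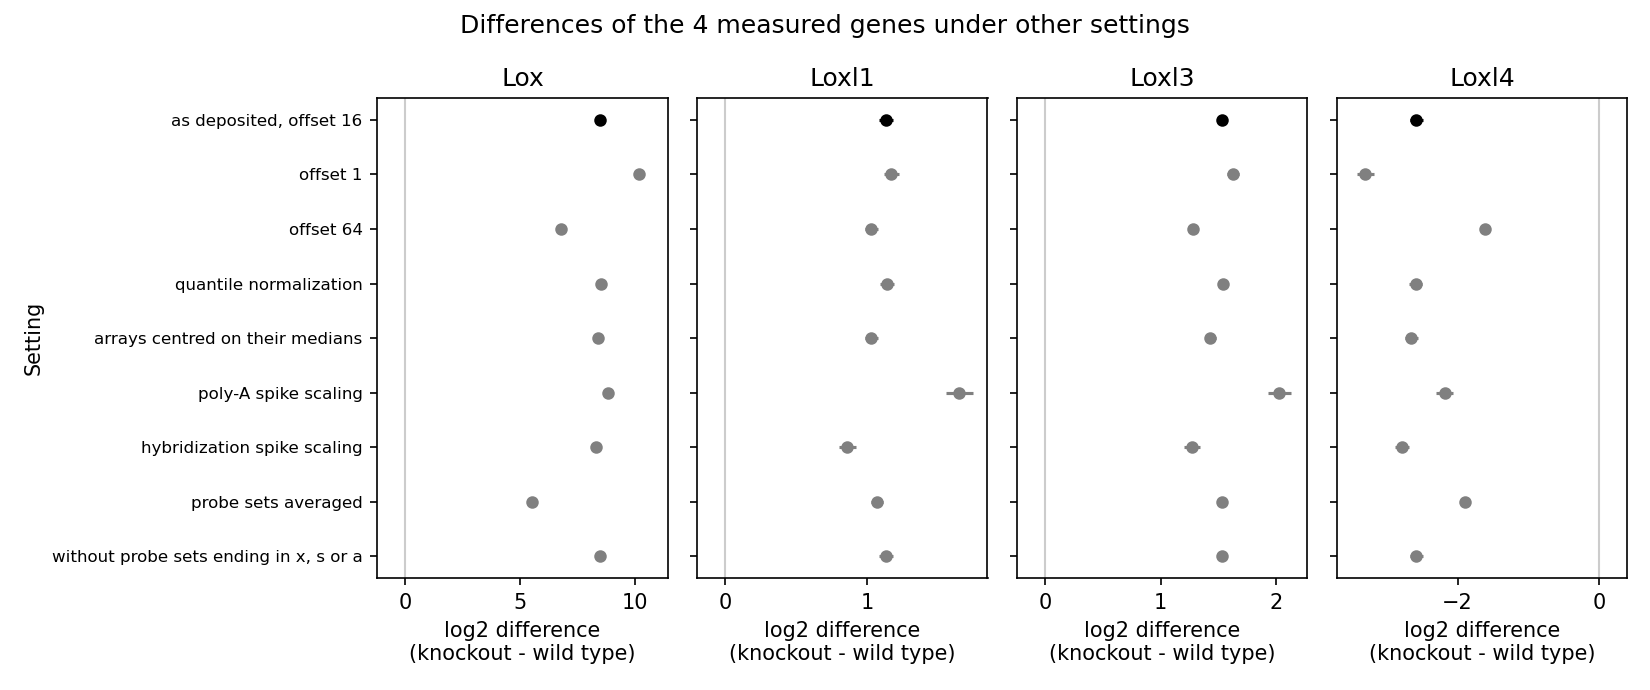
Log2 difference (knockout-labelled minus wild-type arrays, with SE as bars) of Lox, Loxl1, Loxl3 and Loxl4 as deposited with an offset of 16 (black) and under 8 other settings (grey). Each gene stays on its side of 0 throughout, while Lox runs from 5.52 with probe sets averaged to 10.18 with an offset of 1.

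The genes whose profiles over the 6 arrays were most like each member's, by the smallest Euclidean distance between log2(signal + 16) values centred on each gene's own mean, were as follows. For Lox they were Grem1, a secreted BMP antagonist (distance 1.17), Aox3, an aldehyde oxidase (1.44), Fmo2, a flavin monooxygenase (1.52), Sfrp1, a secreted Wnt antagonist (1.54), and Plpp3, a lipid phosphatase (1.58). Each was higher in the knockout-labelled arrays, by 7.18 to 7.55 on the log2 scale. For Loxl1 they were Osbpl3 (0.0761), an oxysterol-binding protein gene, BC029722 (0.0871) and the ataxin gene Atxn7 (0.0886), with differences of 1.08 to 1.13. For Loxl3 they were the Hippo pathway kinase gene Lats2 (0.0346), the RNA-binding protein gene Cpeb3 (0.0642) and the proteasome subunit gene Psmd6 (0.0684), with differences of 1.55 or less, close to that of Loxl3. For Loxl4 they were Mal (0.12), a membrane proteolipid gene, Fdps (0.167), of cholesterol synthesis, and Pfkp (0.176), a phosphofructokinase, with differences of -2.62 to -2.56. With all probe sets of a gene averaged, the differences of Lats2 (0.63), Fdps (-1.28) and Pfkp (-1.59) were among those that were smaller. Probe sets of other genes differed too. The other ones of Fmo2 ran from 0.70 to 6.39 and those of Sfrp1 from 3.38 to 7.79. Those of Atxn7 were at 0.63 and 0.50, and another of Mal was at -4.35. All of these genes were chosen by distance over the same 6 arrays. Their directions and sizes thus follow from that choice and are given as a description.

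These signals are bulk readings of a culture, so fewer cells expressing a gene and less RNA per cell cannot be told apart.

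On the chromosome, the nearest measured genes on both sides of Lox were higher together with it. Srfbp1, which encodes a binding protein of serum response factor, had 144.4 ± 10.08 in wild type and 495.1 ± 27.45 in the knockout-labelled arrays (SD, n = 3 each), a rise of 1.67 ± 0.06 on the log2 scale (limma adjusted p = 8.28e-11); its other probe set was at 2.21. The non-coding RNA gene Gm41724, on the other side, rose from 8.31 ± 1.48 to 371.1 ± 27.26, by 3.99 ± 0.08 (limma adjusted p = 5.79e-13). Farther out the changes were small: Prr16 rose by 0.18 and Zfp474 fell by 0.20, both at mean signals below 12, and Ftmt (-0.03) and 1700034E13Rik (0.03) did not pass the test. In the same fit, at an adjusted p under 0.05, 24.2% of all genes rose and 35.5% fell. Around Loxl1, of the 3 genes on each side, 1 rose and 3 fell. Pml had the largest difference of the main probe sets (-0.51), but its other probe sets were at 0.54 and 0.16, and averaged it was at 0.07 and no longer passed (limma adjusted p = 0.282), so its direction is not settled. Around Loxl3, 2 rose, Dok1 by 0.36 and Aup1 by 0.32. Around Loxl4, Hps1 rose by 0.33 (0.10 and not called with its probe sets averaged) and Pyroxd2 fell by 0.27. Of these smaller changes, those of Pml, Pyroxd2, Zfp474 and Cd276 were lost under poly-A spike scaling and those of Stoml1, Dok1, Aup1 and Hps1 under hybridization spike scaling; Srfbp1 and Gm41724 kept their calls under every setting run.

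**Figure D3:**
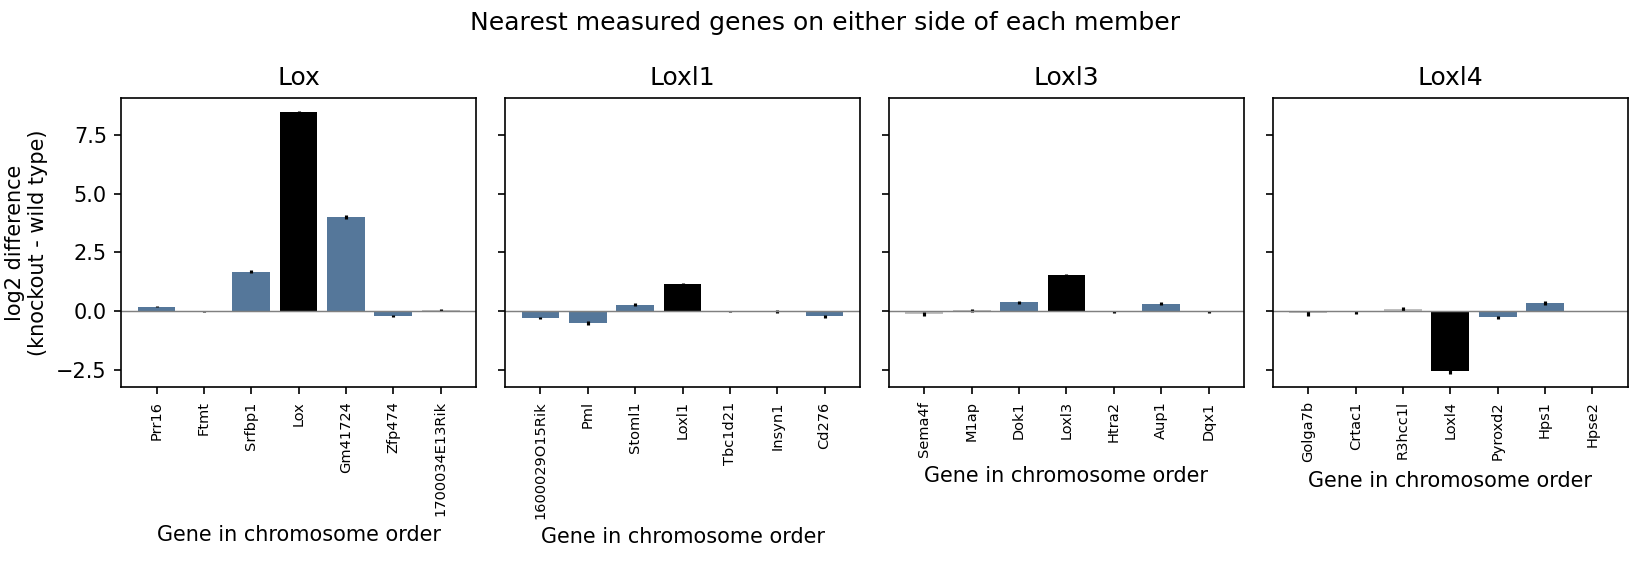
Log2 difference (knockout-labelled minus wild-type arrays, bars with SE) of Lox, Loxl1, Loxl3 and Loxl4 (black) and of the main probe sets of the 3 nearest measured genes on each side in chromosome order, blue where the adjusted p was under 0.05 and grey otherwise. Srfbp1 (1.67) and Gm41724 (3.99) stand beside Lox, and no neighbour's main probe set beside the other members differs by more than 0.51 in size; another probe set of Pml, not drawn, is at 0.54.

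The genes that lysyl oxidases work with were taken from lists by role. Beside the counts below, 24.2% of all 18193 genes rose and 35.5% fell in the same fit. On poly-A spikes 11010 of all genes rose and 2747 fell, and on hybridization spikes 2966 and 11100. Of 12 collagen and elastin substrates, 3 rose and 7 fell, with a median difference of -0.14 against -0.03 for all genes; on poly-A spikes 7 rose and 4 fell. The fibrillar chains Col1a2 (2284 to 9.71, -6.48 ± 0.07) and Col3a1 (1934 to 14.9, -5.99) had the largest falls, although another Col3a1 probe set was at -2.50 and Col1a2 was at -4.14 with its probe sets averaged, and Col11a1 (4.16 to 146.7, 3.01) and Col1a1 (412.8 to 1478, 1.80) rose. Elastin, the substrate of Loxl1 in elastic fibres, was dim in both groups (Eln, 14.6 and 15.4), at 0.03 ± 0.10 (limma adjusted p = 0.842), named after its value was seen.

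Of 16 measured enzymes and chaperones that modify collagen before it is cross-linked, 4 rose and 9 fell (median -0.19). Over all genes 24.2% rose and 35.5% fell, so the share that rose here was near that of all genes. The balance in the list turned to 9 and 4 on poly-A spikes and was 3 and 12 on hybridization spikes. P3h4, which acts with a lysyl hydroxylase, rose by 2.62 and the prolyl 3-hydroxylation genes P3h2 and Crtap by 1.30 and 1.23. Plod1, the lysyl hydroxylase that prepares helical lysines for cross-linking, fell by 1.55 (232.1 to 68.5); its other, dimmer probe set was at -0.20, and averaged they gave -0.88.

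Of 15 measured genes for proenzyme cleavage and for matrix scaffolds that bind these enzymes, 8 rose and 2 fell, with a median of 0.91. Over all genes the shares were 24.2% and 35.5%. On poly-A spikes 13 genes of the list rose and 1 fell, and on hybridization spikes 8 and 5. On spike scaling the list's median was 1.45 (poly-A) or 0.63 (hybridization). Bmp1, the protease that removes the LOX and LOXL1 propeptides, rose from 208.1 to 692.4 (1.66 ± 0.05, limma adjusted p = 9.24e-12). Thbs1, a matrix thrombospondin, rose by 4.78, the elastic fibre gene Fbln5 from 5.34 to 378.5 (4.21 ± 0.08, limma adjusted p = 2.92e-13), and Postn, a matricellular protein that binds BMP1, by 3.45. A second Bmp1 probe set was at 1.62, while its remaining probe set and the other of Fbln5 were dim in both groups (-0.03 and 0.04); averaged, Bmp1 was at 1.09 and Fbln5 at 2.12. The Bmp1 relatives Tll1 and Tll2, named after their values were seen, were at the floor in both groups (signals of 2.61 and 2.89, and of 3.85 and 3.52), where log2(signal + 16) hardly moves (0.02 and -0.02).

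Copper is loaded into lysyl oxidases in the secretory pathway. Of 10 copper supply genes, 3 rose and 5 fell (median -0.22), or 5 and 4 on poly-A spikes. Over all genes 24.2% rose and 35.5% fell. The importer gene Slc31a1 fell by 1.08 (193.5 to 83.1), and Atox1, which hands copper to the secretory pumps, rose by 0.85. Sco2, a mitochondrial copper chaperone, rose by 1.55 and Cox17, another, fell by 1.07. Atox1, Sco2 and Cox17 were read by probe sets whose suffix marks them as shared by several transcripts. Other Atox1 probe sets were at 0.86, 0.68 and -0.001, the last dim in both groups. The other Cox17 probe set was dim in both groups and at 0.09, and Sco2 had no other. Atp7a, the pump that supplies these enzymes, was at 0.12 ± 0.07 (limma adjusted p = 0.13), named after its value was seen.

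Of 17 upstream regulators, 8 rose and 5 fell (median -0.02). The counts were 13 and 2 on poly-A spikes but 6 and 9 on hybridization spikes. For this list and the next, the shares over all genes were 24.2% risen and 35.5% fallen. Smad3, a transcription factor of TGF-beta signalling, rose from 237.6 to 1057 (2.08 ± 0.05), the ligand gene Tgfb3 by 1.41, the zinc finger factor gene Snai2 by 1.22, and Smad7, an inhibitor of the same pathway, by 1.16. Other probe sets of Smad3 were at 0.62 and 0.70, and averaged Smad3 was at 1.14 and Smad7 at 0.65; the other, dimmer Snai2 probe set was at 0.74. Of 9 measured other matrix cross-linking and amine oxidase enzymes, 7 fell and none rose (limma, adjusted p under 0.05), with a median of -0.17; all 9 differences were below 0, so none was higher at an unadjusted p under 0.05 either. On poly-A spikes 2 fell and 1 rose, and with dim genes left out 3 fell. Tgm2, the tissue transglutaminase, fell from 1247 to 49.6 (-4.27 ± 0.07, or -2.45 with its probe sets averaged) and Pxdn, the peroxidase that cross-links collagen IV, by 0.90. Tgm5 (-0.35) and Tgm3 (-0.18) were dim in both groups, at mean signals below 20; the call of each was lost under poly-A spike scaling, where Tgm3 was at 0.05. That of Tgm3 was also lost without wild-type array 1 (-0.11) or 2 (-0.19), or knockout-labelled array 2 (-0.14) or 3 (-0.18). The medians of the substrate, hydroxylation, copper, regulator and other cross-linker lists turned positive under poly-A spike scaling (0.24, 0.18, 0.15, 0.51 and 0.02), and those of the copper and regulator lists also did without shared probe sets (0.09 and 0.14). The regulator median was at 0.02 without wild-type array 1 and 0.01 without wild-type array 3. That of the cleavage and scaffold list was above 0 under every setting run. Over all genes, rises made up 40.6% of calls, against 80% on poly-A spikes and 21.1% on hybridization spikes.

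**Figure D4:**
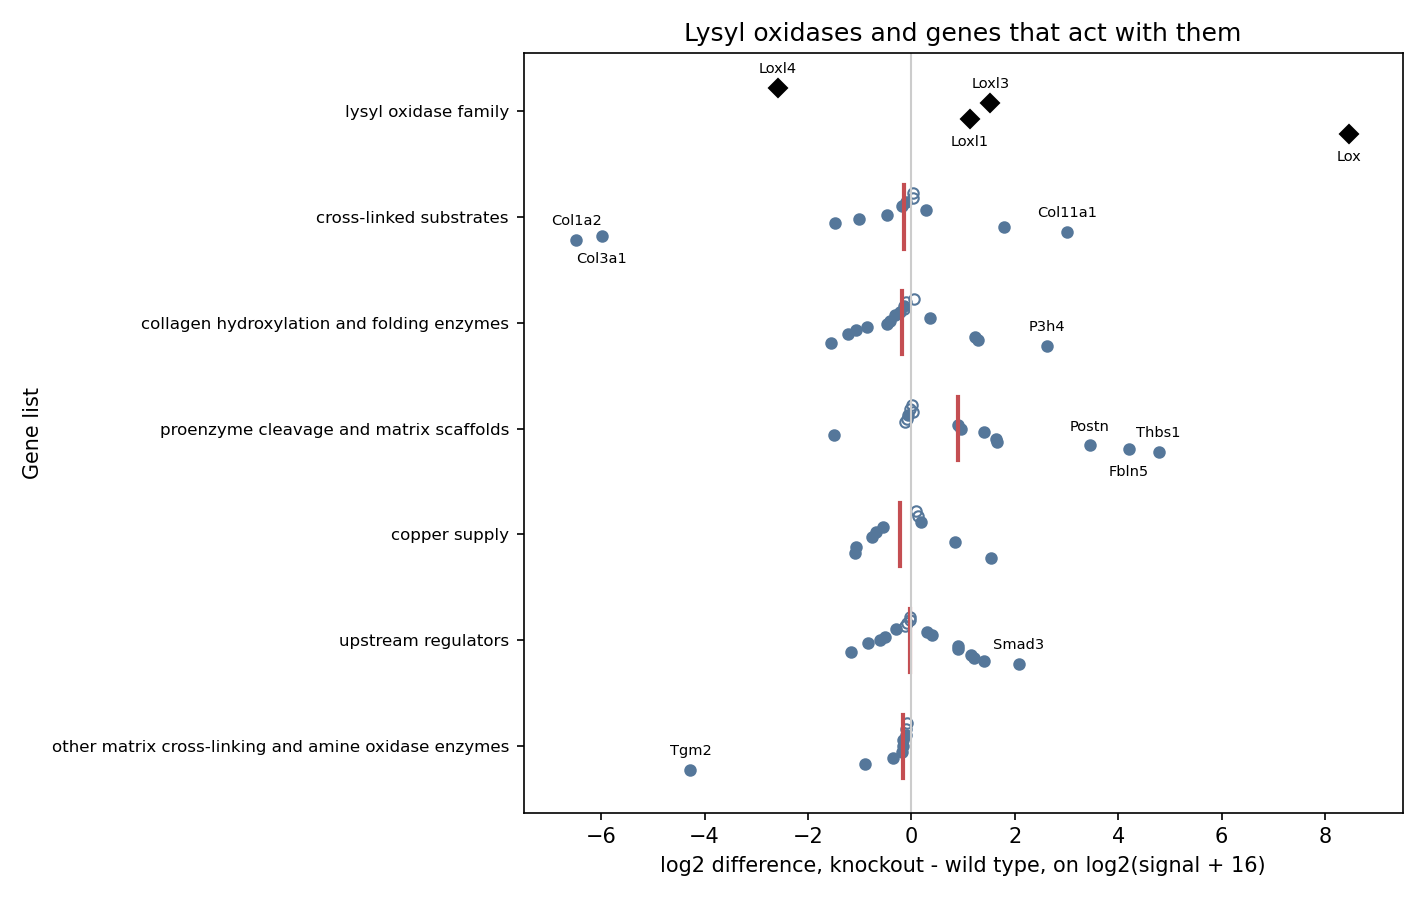
Log2 difference (knockout-labelled minus wild-type arrays, on log2(signal + 16)) of the 4 measured lysyl oxidase genes (black diamonds, described without a test) and of each measured gene of 6 lists, filled for an adjusted p below 0.05, with a red bar at each list's median. Lox lies at 8.46 and Loxl4 at -2.58; the list of proenzyme cleavage and scaffold genes has a median of 0.91, and the other medians lie between -0.22 and -0.02.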

How the data were processed

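The authors deposited linear probe set signals (intensities) of 6 arrays; MAS5 is the tool named, per the submitters' processing notes, with version, role and scaling not given in the sources used here. Per the labels' protocols, total RNA was labelled with biotin. Of 34945 probe sets with 1 gene, 34741 matched by Entrez number to the RefSeq table of GRCm38.p6, used for names and gene order. Signals became log2(signal + 16). A gene took its probe set with the highest mean on that scale. Differences, SE and two-sided p-values came from limma 3.58.1 in R 4.3.3 (eBayes with trend), Benjamini-Hochberg adjusted over 18193 genes; calls are at an adjusted p under 0.05. The fit was tested on simulated data. Named list genes are up to 4 with the largest called differences per list; neighbours are the 3 nearest measured genes per side; the nearest profiles are 5 for Lox and 3 for other members. Members, lists and rules were chosen with earlier results of these data known. No detection calls were used, and array pairing was checked. Figures used matplotlib 3.10.9.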

Additional observations from a re-analysis of the deposited data

How the results depend on the processing

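The differences of Lox, Loxl1, Loxl3 and Loxl4 kept their direction under all alternatives run. Lox was at 10.18 and 6.78 with offsets of 1 and 64, 8.80 and 8.29 under poly-A and hybridization spike scaling and 5.52 with probe sets averaged. Loxl1 was at 1.03 with an offset of 64, 1.03 with arrays centred on their medians, and 1.65 and 0.86 under poly-A and hybridization spike scaling. Loxl3 was at 1.63 and 1.28 with offsets of 1 and 64, 1.43 with arrays centred, and 2.03 and 1.27 under the spike scalings. Loxl4 was at -3.30 and -1.62 with the offsets, -2.18 and -2.78 under the spike scalings and -1.90 with probe sets averaged.

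All genes that rose numbered 4411, or 11010 under poly-A spike scaling; those that fell 6455, or 2747 and 11100 under poly-A and hybridization spike scaling. In the 6 lists together 26 rose and 35 fell, or 48 and 17 under poly-A spike scaling. With the hybridization controls as reference, 22 list genes rose and 47 fell, while 2966 of all genes rose. Without spike scaling, 24.2% of all genes rose and 35.5% fell, so nothing is read from these list counts. Directions turned for Cox17 (0.09 without probe sets whose suffix marks them as shared), for Tgm3 (0.05), Cd276 (0.23), Pyroxd2 (0.01), Abl1 (0.38) and Abl2 (0.50) under poly-A spike scaling, for Pml (0.07) and Abl1 (0.13) with probe sets averaged, and for Abl2 at 0.01 under quantile normalization and between -0.04 (without wild-type array 1) and 0.02 (without knockout-labelled array 3) when single arrays were left out, with 0.01 and 0.00 without wild-type arrays 2 and 3; the cause was not tested. Abl1 and Abl2 gained a call as lower on hybridization spikes (-0.37 and -0.27), as did Abl1 with arrays centred (-0.21). Both gained a call as higher on poly-A spikes, as did Abl1 with probe sets averaged. Tgm3 also lost its call (limma) without wild-type array 1 (-0.11), wild-type array 2 (-0.19), or knockout-labelled array 2 (-0.14) or 3 (-0.18), and without the trend (-0.18).

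Arrays with the same number shared little: their deviations from the group means correlated at 0.031, 0.132 and 0.164 across probe sets. With the replicate number as a block, 4458 genes rose and 6477 fell, and Lox stayed at 8.46. Low signals limit how large a fold can be read, such as those of Lox in wild type, near the floor, and of Loxl4 in the other group, close to the array median.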
